A study of Homo sapiens with 6 samples.

Results

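Tight junctions, desmosomes and the complexes that set cell polarity were examined through 43 genes in HCT116SCs. These are colorectal cancer stem cells, obtained from the HCT116 line by magnetic sorting for CD44 and CD326 (EPCAM) and grown as tumor spheres without serum. The genes were chosen by name among the 58735 genes of the expression table, from claudins, the occludin family, junctional plaque proteins, desmosomal proteins and the PAR, Crumbs and Scribble complexes. Cells with a wild-type genotype label received negative control siRNA (NC, n = 3 libraries) or siRNA against PSCA (siPSCA, n = 3 libraries), and RNA was taken 48 h later. The comparison of siPSCA with NC asks which transcripts changed when PSCA, a surface protein of the Ly6 family, was targeted. The sources name 3 PSCA siRNAs but not the sequence used for sequencing, and all cells derive from a single established line. The titles of siPSCA 2 and siPSCA 3 carry other numbers after HCT, whereas every other label names HCT116. Nothing states that the libraries came from separate cultures, so the p-values measure the spread between libraries, which may be technical.

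Tight junctions seal the space between neighbouring epithelial cells close to the apical side. Claudins and the MARVEL proteins occludin and tricellulin span the membrane there, and the ZO proteins tie them to actin. Desmosomes hold epithelial sheets together under load, through desmogleins and desmocollins that are linked by plakoglobin, plakophilins and desmoplakin to keratin filaments. The PAR and Crumbs complexes mark the apical side of an epithelial cell and the Scribble module the basolateral side, and the 2 sides restrain each other. In epithelial cells, repressors such as SNAI1 and ZEB1 are known to bind the hexamer CAGGTG, an E-box, in promoters of junction and polarity genes.

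That hexamer was therefore sought, with its reverse complement CACCTG, in the 300 bases from 250 before to 50 after transcript starts (RefSeq, GRCh38.p14). These strings do not overlap each other. Of the 43 genes 29 had such a window, 46 windows in all, and 17 of these (37.0%) held the hexamer on either strand, against 20.6% of 35116 windows of all genes. The windows of the 43 genes also had a median GC content of 66.3%, against 58.7% for all windows. Windows with 5 or more matches numbered 33 among all genes (0.0940%), and a window each of CRB3 and CLDN7 was among them. Another window of CLDN7, at a start further upstream, had 0 matches. With 3 matches or more there were 223 (0.635%), among them also a window each of PATJ and PRKCZ. A match describes the letters only and does not show that a factor binds. The windows below are those of CRB3 and PATJ, partners in the Crumbs complex whose transcripts moved in opposite directions, of CLDN7, which rose, and of DSG2, which fell and had the highest mean level of the 43 genes in NC. Capitals mark the hexamer on either strand, and each sequence is written 5′ to 3′ in the direction of the gene.
CRB3: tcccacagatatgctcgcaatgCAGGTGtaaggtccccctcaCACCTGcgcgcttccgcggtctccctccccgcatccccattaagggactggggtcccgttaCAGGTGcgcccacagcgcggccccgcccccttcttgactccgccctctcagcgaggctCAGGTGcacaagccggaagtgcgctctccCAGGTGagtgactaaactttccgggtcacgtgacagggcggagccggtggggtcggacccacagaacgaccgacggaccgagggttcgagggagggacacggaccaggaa
PATJ: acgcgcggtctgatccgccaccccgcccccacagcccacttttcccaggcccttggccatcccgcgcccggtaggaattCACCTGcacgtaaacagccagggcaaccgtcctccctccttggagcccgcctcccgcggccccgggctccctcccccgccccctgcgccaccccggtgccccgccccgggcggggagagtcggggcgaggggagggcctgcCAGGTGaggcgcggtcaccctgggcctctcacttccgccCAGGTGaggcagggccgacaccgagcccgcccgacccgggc
CLDN7: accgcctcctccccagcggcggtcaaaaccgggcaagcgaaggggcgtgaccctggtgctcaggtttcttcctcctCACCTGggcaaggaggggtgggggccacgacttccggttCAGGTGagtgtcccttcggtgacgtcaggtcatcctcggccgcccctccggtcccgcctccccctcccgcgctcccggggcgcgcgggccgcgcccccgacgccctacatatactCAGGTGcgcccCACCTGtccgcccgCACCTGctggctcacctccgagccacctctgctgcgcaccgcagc
DSG2: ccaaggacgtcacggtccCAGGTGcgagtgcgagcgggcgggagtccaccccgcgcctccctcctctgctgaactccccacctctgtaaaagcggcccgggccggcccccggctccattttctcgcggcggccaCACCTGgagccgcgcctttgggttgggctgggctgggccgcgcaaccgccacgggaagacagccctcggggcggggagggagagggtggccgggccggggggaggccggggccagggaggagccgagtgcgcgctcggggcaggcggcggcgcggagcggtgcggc
The CRB3 window lies at chr19:6464021-6464320 on the plus strand and the PATJ window at chr1:61742230-61742529 on the plus strand. The CLDN7 window lies at chr17:7262429-7262728 on the minus strand and the DSG2 window at chr18:31497927-31498226 on the plus strand. In each, the last 50 bases follow the transcript start. In GENCODE release 29 CRB3 covers 6463777 to 6467221 of chromosome 19 and CLDN7 7259903 to 7263983 of chromosome 17, so these windows lie inside gene models with a further start upstream. PATJ covers 61742406 to 62178675 of chromosome 1 and DSG2 31498043 to 31549008 of chromosome 18, and their windows reach across the upstream end of the model. Matches stood in windows of genes of either direction, in 5 of the 8 genes with a window that rose in siPSCA, 6 of 8 that fell, 3 of 9 that passed in neither direction and 1 of 4 that were too low to test. Genes with more windows had more places for a match, and the share of all genes with a match in some window was not computed.

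Levels are given as FPKM, the reads on a gene divided by its length and by a library total, which allows genes to be compared within a library. Reads on genes numbered 16145977 to 16884838 in NC and 16099716 to 17302219 in siPSCA, so depth was alike. PSCA itself had 4, 12 and 15 reads in NC and 9, 9 and 7 in siPSCA, ranges that overlap (adjusted p = 0.728), so at this depth the target does not check the labels. NC 3 stood apart from NC 1 and NC 2 along GC content, the share of G and C in a transcript. Its deviation from them had a Spearman correlation of -0.56 with GC content across 13792 genes, which are not independent replicates, and siPSCA 3 deviated from its group likewise (-0.38). The trend of each library on GC content and gene length was therefore also removed, and values after that step are given beside many of the deposited ones. Condition and library preparation cannot be told apart in these 6 libraries.

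Limma, fitted to log2(FPKM + 1) over the 13796 genes whose FPKM averaged 1 or more, called 50.7% of all genes at an adjusted p under 0.05. Higher in siPSCA were 26.6% and lower 24.2%. Of the 43 junction and polarity genes 38 were tested, of which 15 were higher (39.5%), 13 lower (34.2%) and 10 passed in neither direction. The groups did not overlap for 32 of the 38, where 64.5% of all tested genes showed no overlap. Each of the genes without overlap had an exact permutation p of 0.1 (2-sided), the smallest that 6 libraries split evenly allow. By an unadjusted p under 0.05 and an absolute log2 fold change over 0.5, 12 were higher and 3 lower, where 24.9% of all genes met these thresholds in either direction. That share was not split by direction, so the 12 and 3 have no counterpart over all genes. Without NC 3, 17 were higher and 13 lower at the adjusted threshold, where 7425 of the 13796 genes were called. By the thresholds of p and fold 9 of the 38 then passed, and the share of all genes that did so without NC 3 was not computed. The median log2 fold change was 0.07 over the 38 genes and 0.01 over all genes. In bulk RNA, fewer cells of a type and less RNA per cell cannot be told apart.

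The direction of these genes went with their GC content. All 15 genes that rose had a GC content over 50%, with a median of 60.7%, and 11 of the 13 that fell were under 50%, with a median of 40.0%. Among all genes the same held for 83.0% of those that rose and 89.6% of those that fell. Across the 38 genes fold change and GC content had a Spearman correlation of 0.816, which was 0.252 after the trend was removed. Over 13792 tested genes the correlation before removal was 0.664. These correlations are a description, since the genes share the same 6 libraries. NC 3 was the lowest NC library for 12 of the 15 that rose and the highest for 9 of the 13 that fell. The same shares over all called genes were not computed, and NC 3 deviated with GC content over all genes (-0.56). After removal of the trend 40.0% of all genes were called, and 14 of the 38 (36.8%, 6 higher and 8 lower), a share near that of all genes. With NC 3 left out as well 22 of the 38 were called, 11 in each direction, where 5956 of the 13792 genes were. CLDN4, PKP3, CRB3, JUP, LLGL2, TJP1 and DSG2 were again among the 22. SCRIB, LLGL1, DLG5 and MARVELD3 were called higher under both analyses, and PPL, PRKCI, PATJ, PKP2 and PARD3 lower. PPL and PARD3 were also the genes that fell in spite of a GC content over 50% (59.5% and 50.3%).

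**Figure D1:**
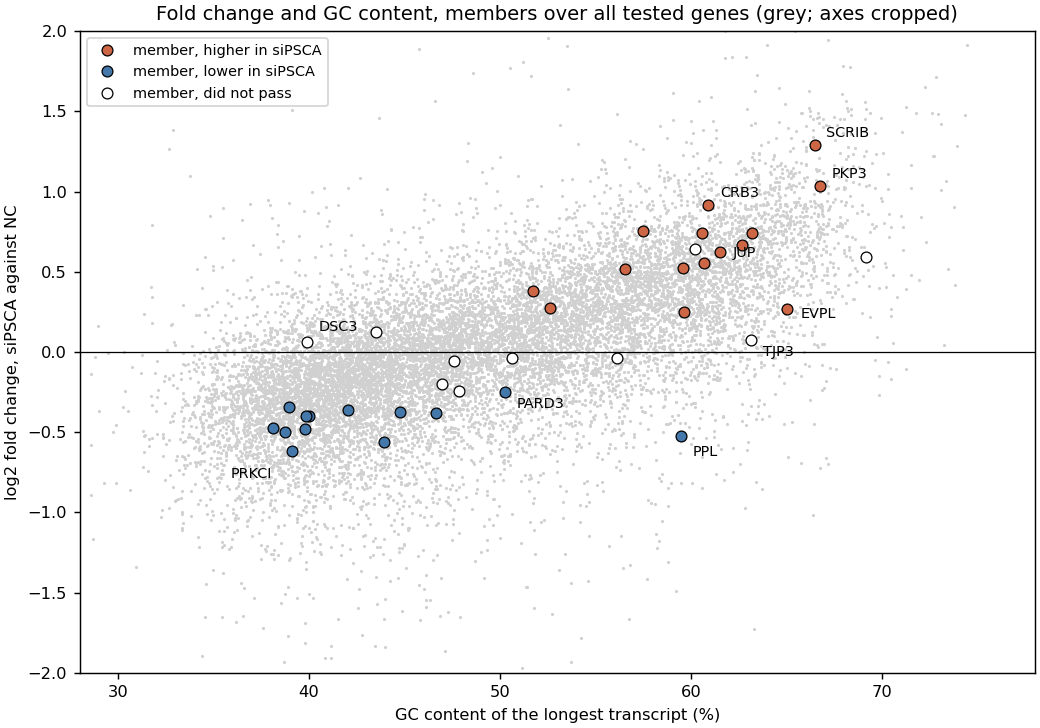
Log2 fold change of siPSCA against NC (y axis, log2(FPKM + 1) scale) against the GC content of the longest transcript in percent (x axis) for the tested genes (grey, axes cropped) and the 38 junction and polarity genes (large points, coloured by call). The points rise from left to right, with PPL far below the genes of like GC content.

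In NC, DSG2 had the highest mean level of the 43 genes, at 91.2 ± 6.10 FPKM (SD, n = 3), followed by JUP (64.1 ± 2.93), DSP (52.4 ± 7.25), CLDN4 (35.1 ± 9.18) and EVPL (29.1 ± 1.70). JUP had 66.2, 65.5 and 60.8 FPKM in the NC libraries and DSP 47.2, 49.4 and 60.7, values that nearly met in NC 3. CLDN4 and EVPL overlapped in NC, so their order is not set. DSG2, JUP and DSP are all desmosomal. The lowest tested gene was CGNL1, with a mean of 1.15 ± 0.106 FPKM in NC. In siPSCA the first place went to JUP, at 103, 97.3 and 97.9 FPKM, above DSG2 in every library.

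Claudins are the strand-forming proteins of tight junctions. Of 9 claudins 7 were tested, 4 rose (CLDN4, CLDN7, CLDN23 and CLDN2), CLDN12 fell, and CLDN3 and CLDN15 did not pass. Among all genes 26.6% rose and 24.2% fell. CLDN4, a barrier-forming claudin, had FPKM values of 41.1, 39.7 and 24.5 in NC and 59.1, 56.9 and 59.1 in siPSCA. The groups did not overlap, and NC 3 was far below the other NC libraries (log2 fold change 0.75, SE 0.19, adjusted p = 0.0187). Without NC 3 the log2 fold change was 0.52 (adjusted p = 0.000321), and after removal of the GC trend it was 0.45 (adjusted p = 0.0526). The call was also lost without siPSCA 1, siPSCA 2 or siPSCA 3. CLDN12 was the claudin with the lowest GC content of those tested, 38.1%, and had 7.30, 7.68 and 7.84 FPKM in NC and 5.22, 4.93 and 5.43 in siPSCA. All siPSCA libraries lay below all NC libraries by a similar margin (log2 fold change -0.48, SE 0.06, adjusted p = 0.00184). With the GC trend removed its log2 fold change was -0.11 (adjusted p = 0.149).

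CLDN7 went from 20.6 ± 3.60 to 29.8 ± 0.922 FPKM (SD, n = 3 each; log2 fold change 0.53, SE 0.13, adjusted p = 0.0154), and CLDN2, a pore-forming claudin, from 3.05 ± 0.314 to 3.90 ± 0.189 (log2 fold change 0.28, SE 0.08, adjusted p = 0.0276). CLDN23 had 1.34 ± 0.342 and 2.43 ± 0.337 FPKM (log2 fold change 0.56, SE 0.14, adjusted p = 0.0175). CLDN7 and CLDN23 lost their call without siPSCA 1 or siPSCA 2, and CLDN2 without NC 1, siPSCA 1, siPSCA 2 or siPSCA 3. None of the 7 claudins was called after removal of the GC trend, where 40.0% of all genes were. Their log2 fold changes then ranged from -0.17 for CLDN3 to 0.45 for CLDN4. CLDN15, another pore-forming claudin, did not overlap between the groups, with 4.98, 4.23 and 2.17 FPKM in NC and 6.42, 6.11 and 6.19 in siPSCA, yet missed the threshold (adjusted p = 0.0550). Without NC 3 it passed, with a log2 fold change of 0.37 (adjusted p = 0.00697). CLDN3 had 20.1, 18.5 and 6.97 FPKM in NC and 22.3, 22.1 and 20.0 in siPSCA. Its groups overlapped (adjusted p = 0.213), and with the GC trend removed and NC 3 left out it was called lower, with a log2 fold change of -0.40 (adjusted p = 0.000601). As a share of the summed claudin FPKM, CLDN4 took 40.6%, 40.7% and 39.6% in NC and 45.4%, 44.9% and 47.0% in siPSCA. CLDN12 took 7.21%, 7.89% and 12.7% in NC and 4.01%, 3.89% and 4.32% in siPSCA. CLDN1 had 1, 2 and 4 reads in NC and 0, 0 and 0 in siPSCA, where 0 reads allow up to 0.0487 FPKM. CLDN6 had 2, 8 and 5 reads in NC and 6, 0 and 7 in siPSCA, too few for a comparison. Other annotated genes share 12.3% of the exonic bases of CLDN7 and 16.3% of those of CLDN12.

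The MARVEL proteins split. MARVELD3, a relative of occludin, had 2.59, 2.48 and 2.70 FPKM in NC and 3.85, 3.55 and 3.64 in siPSCA. Every siPSCA library was above every NC library (log2 fold change 0.38, SE 0.06, adjusted p = 0.00457), and the difference was 0.32 after removal of the GC trend (adjusted p = 0.00650). PHLPP2, on the opposite strand, covers 16.6% of the MARVELD3 exons and went from 3.35 to 4.17 FPKM, and no strand setting is given for the counting. OCLN, which encodes occludin, had 5.89, 6.11 and 6.01 FPKM in NC and 4.24, 4.55 and 4.16 in siPSCA. The groups were apart with little spread inside each (log2 fold change -0.40, SE 0.06, adjusted p = 0.00272), whereas after removal of the GC trend the log2 fold change was -0.07 (adjusted p = 0.491). OCLN shares sequence with its pseudogene OCLNP1, counted at 3.23 FPKM in NC and 1.82 in siPSCA, so the split of reads between them is uncertain. MARVELD2, which encodes tricellulin of the corners where 3 cells meet, had 7.65 ± 0.259 and 8.42 ± 0.1001 FPKM (adjusted p = 0.0768) and passed after removal of the GC trend (log2 fold change 0.31, adjusted p = 0.00350).

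Of the immunoglobulin proteins at junctions, CXADR, the receptor of coxsackie and adenoviruses, fell. It had 13.5, 13.3 and 15.1 FPKM in NC and 9.09, 10.4 and 9.67 in siPSCA, with no overlap (log2 fold change -0.48, SE 0.07, adjusted p = 0.00384), and -0.15 on the log2 scale after removal of the GC trend (adjusted p = 0.0675). F11R, which encodes JAM-A, had 15.4 ± 0.575 and 14.8 ± 0.863 FPKM, with overlapping groups (adjusted p = 0.454). AL591806.3 shares 36.6% of its exons on the same strand, which makes its level uncertain. JAM3 was near the lower end of detection, with 26, 24 and 32 reads in NC and 39, 39 and 27 in siPSCA.

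Of the 4 tested plaque proteins that sit under the tight junction strands, TJP1 alone was called, where 50.7% of all genes were. TJP1, which encodes ZO-1, had 20.8, 20.5 and 19.9 FPKM in NC and 15.5, 15.2 and 15.9 in siPSCA. The groups were clearly apart (log2 fold change -0.37, SE 0.05, adjusted p = 0.00191), and the fall held in each of the 6 fits without 1 library, but not after removal of the GC trend (log2 fold change -0.16, adjusted p = 0.0865). TJP3, which encodes ZO-3, had 9.68 ± 0.526 and 10.3 ± 0.447 FPKM (adjusted p = 0.322), and its sign turned after removal of the trend (-0.48, adjusted p = 0.00883). The cingulin gene CGN and its relative CGNL1 had log2 fold changes of -0.04 and -0.04, neither of them called. CGN passed once the trend was removed, with -0.25 (adjusted p = 0.00672). MPDZ, a relative of PATJ with many PDZ domains, was listed at 0 in all 6 libraries.

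**Figure D2:**
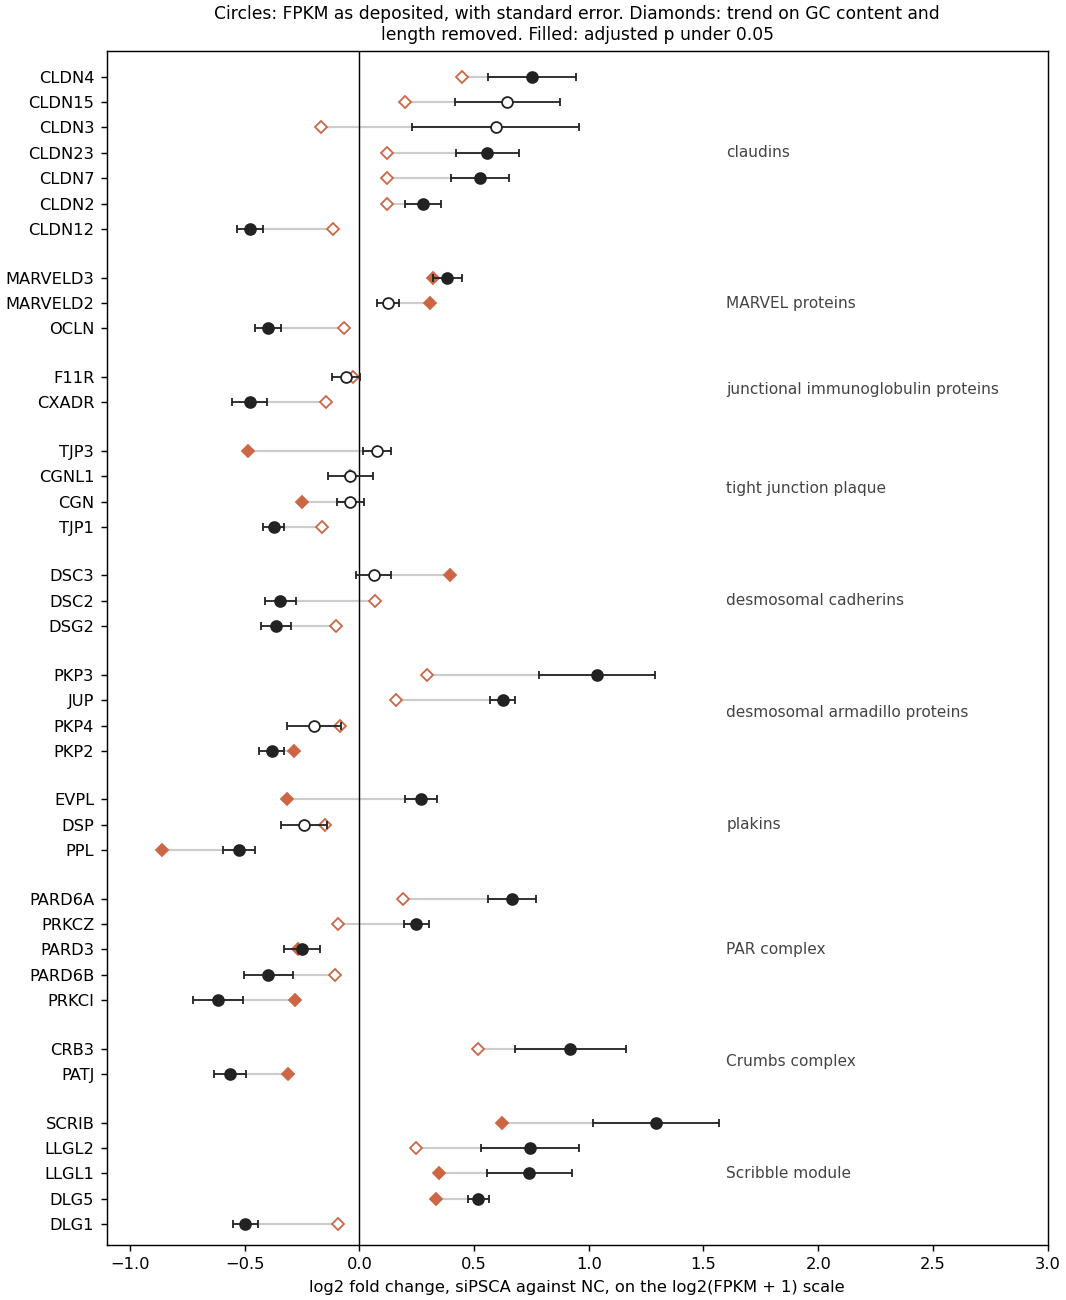
Log2 fold changes of siPSCA against NC on the log2(FPKM + 1) scale (x axis) for the 38 tested genes by group, from deposited FPKM (circles, with standard error) and with the GC and length trend removed (diamonds). Filled symbols had an adjusted p under 0.05. The diamonds of PPL, PARD3, TJP3, EVPL, CGN, DSC3 and MARVELD2 are filled and lie farther from 0 than their circles. Those of TJP3 and EVPL lie on the other side of 0.

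Of the 3 desmosomal cadherins, which span the membrane, 2 fell and none rose, where 24.2% of all genes fell and 26.6% rose. DSG2, a desmoglein of simple epithelia, had 86.7, 88.7 and 98.1 FPKM in NC and 67.4, 70.5 and 74.0 in siPSCA. All siPSCA libraries were below all NC libraries, with NC 3 the highest (log2 fold change -0.36, SE 0.07, adjusted p = 0.00604). DSC2, its usual partner, went from 20.8 ± 1.62 to 16.2 ± 0.568 FPKM (log2 fold change -0.35, SE 0.07, adjusted p = 0.00785). Both falls passed in all 6 fits without 1 library. With the GC trend removed they were -0.10 for DSG2 (adjusted p = 0.0589) and 0.07 for DSC2 (adjusted p = 0.169). DSC3 had 4.74 ± 0.241 and 5.0001 ± 0.460 FPKM, with overlapping groups (adjusted p = 0.514), and a log2 fold change of 0.40 after removal of the trend (adjusted p = 0.00402). Of the summed FPKM of these 3 cadherins DSG2 held 77.7%, 78.5% and 78.01% in NC and 76.8%, 77.2% and 76.8% in siPSCA, shares that lay close together.

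The armadillo proteins, which link the cadherins to desmoplakin, moved in both directions. JUP, which encodes plakoglobin, had 66.2, 65.5 and 60.8 FPKM in NC and 103, 97.3 and 97.9 in siPSCA. The rise was far larger than the spread of either group (log2 fold change 0.62, SE 0.05, adjusted p = 0.000770) and passed in all 6 fits without 1 library, yet it was 0.16 after removal of the GC trend (adjusted p = 0.0911). With NC 3 left out as well, that value was 0.23 (adjusted p = 0.00352). PKP3, a plakophilin of simple and stratified epithelia, had 21.4, 21.9 and 10.9 FPKM in NC and 37.7, 35.9 and 35.9 in siPSCA. NC 3 was far below NC 1 and NC 2, and all siPSCA libraries were above all controls (log2 fold change 1.04, SE 0.25, adjusted p = 0.0166). Without NC 3 the log2 fold change was 0.73 (adjusted p = 0.000222), after removal of the GC trend 0.30 (adjusted p = 0.0754), and the call was lost without siPSCA 1 or siPSCA 2. PKP2 fell instead, from 5.21, 5.58 and 5.37 FPKM in NC to 4.02, 3.83 and 3.85 in siPSCA. The groups did not overlap (log2 fold change -0.38, SE 0.05, adjusted p = 0.00294), and the fall passed after removal of the GC trend too (-0.29, adjusted p = 0.0127). PKP4 had 21.0 ± 3.74 and 18.0 ± 0.594 FPKM (adjusted p = 0.202), and PKP1 1, 2 and 1 reads in NC and 0, 1 and 1 in siPSCA.

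Of the plakins, which reach from the plaque to keratin filaments, PPL fell, EVPL rose and DSP did not pass. PPL, which encodes periplakin, had 17.8, 18.5 and 21.0 FPKM in NC and 13.0, 12.9 and 13.0 in siPSCA. The siPSCA values were almost equal and all lay below NC (log2 fold change -0.53, SE 0.07, adjusted p = 0.00229). The fall was larger after removal of the GC trend (-0.86, adjusted p = 0.00296). EVPL, which encodes envoplakin, the partner of periplakin in the cornified envelope, had 30.1, 30.0 and 27.1 FPKM in NC and 37.3, 35.6 and 32.9 in siPSCA. Every siPSCA library was above every NC library by a small margin (log2 fold change 0.27, SE 0.07, adjusted p = 0.0192). After removal of the GC trend EVPL turned and passed as lower (-0.31, adjusted p = 0.0353), so its direction depends on that step. The rise was also not called without siPSCA 1 or siPSCA 2. DSP, which encodes desmoplakin, the obligate plakin of desmosomes, had 47.2, 49.4 and 60.7 FPKM in NC and 42.6, 43.2 and 46.1 in siPSCA. The siPSCA values were all lower, but NC 3 was well above the other controls and the gene was not called (log2 fold change -0.24, SE 0.10, adjusted p = 0.0859).

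**Figure D3:**
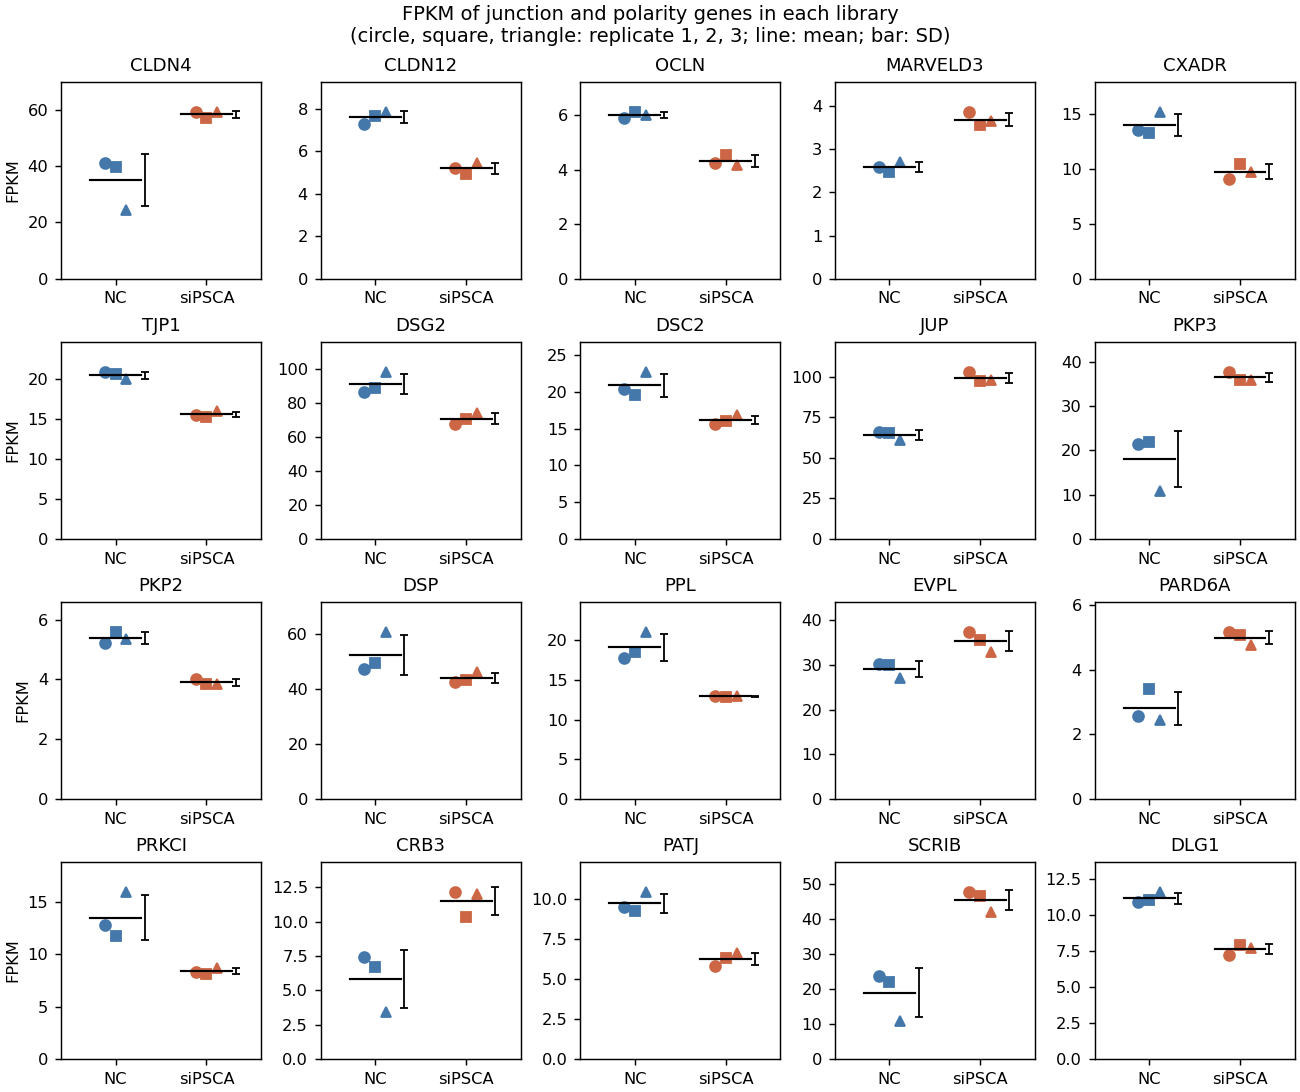
FPKM (y axis, from 0) of 20 junction and polarity genes in each library of NC (blue) and siPSCA (red), with circle, square and triangle for replicates 1, 2 and 3, a line at the mean and a bar for the SD. NC 3 (blue triangle) is far below the other controls for CLDN4, PKP3, CRB3 and SCRIB and above them for DSP, PRKCI and DSG2.

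All 5 genes of the PAR complex were called, 2 higher and 3 lower, where 50.7% of all genes were. With the GC trend taken out 2 stayed called (40.0%), the same share as over all genes. PRKCI, which encodes the atypical protein kinase C iota, had 12.9, 11.7 and 16.0 FPKM in NC and 8.36, 8.18 and 8.72 in siPSCA. The siPSCA libraries were close together and below all controls (log2 fold change -0.61, SE 0.11, adjusted p = 0.00561), and the fall passed after removal of the GC trend (-0.28, adjusted p = 0.0187). PRKCZ, the gene of the zeta form, went the other way, from 3.53 ± 0.0866 to 4.38 ± 0.0905 FPKM (log2 fold change 0.25, SE 0.05, adjusted p = 0.0114). Its log2 fold change was -0.09 with the trend removed (adjusted p = 0.415), with no call in either direction, and the rise was not called without siPSCA 2. PARD6A, an adaptor that binds the kinase, had 2.56, 3.40 and 2.46 FPKM in NC and 5.16, 5.07 and 4.76 in siPSCA. The groups were well apart, with NC 2 the highest control (log2 fold change 0.66, SE 0.10, adjusted p = 0.00390), and the value after removal of the trend was 0.19 (adjusted p = 0.181). Its relative PARD6B fell from 7.70 ± 0.6003 to 5.63 ± 0.810 FPKM (log2 fold change -0.40, SE 0.11, adjusted p = 0.0225), and the call was lost without NC 2, siPSCA 1 or siPSCA 2 and after removal of the trend (-0.11). PARD3, the scaffold of the complex, went from 10.7 ± 1.09 to 8.78 ± 0.00522 FPKM (log2 fold change -0.25, SE 0.08, adjusted p = 0.0350) and to -0.27 after removal of the trend (adjusted p = 0.0148). The PARD3 call was lost on leaving out NC 1, siPSCA 1, siPSCA 2 or siPSCA 3.

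Of the Crumbs complex, CRB3 and PATJ moved apart. CRB3, the Crumbs protein of epithelia, had 7.40, 6.71 and 3.43 FPKM in NC and 12.1, 10.4 and 11.998 in siPSCA. The lowest value was again NC 3, and all siPSCA libraries were above all controls (log2 fold change 0.92, SE 0.24, adjusted p = 0.0213). Without NC 3 the log2 fold change was 0.63 (adjusted p = 0.00173), and after removal of the GC trend it was 0.52 (adjusted p = 0.0513). Without siPSCA 1 or siPSCA 3 the call was lost. PATJ, a scaffold that is tied to CRB3 through PALS1, had 9.47, 9.26 and 10.4 FPKM in NC and 5.84, 6.32 and 6.61 in siPSCA. The groups did not overlap (log2 fold change -0.56, SE 0.07, adjusted p = 0.00187), and the fall passed in all 6 fits without 1 library and after removal of the trend (-0.31, adjusted p = 0.00320). PALS1 is listed under its older symbol MPP5, with 5.65, 5.44 and 5.71 FPKM in NC and 3.84, 3.58 and 3.70 in siPSCA (log2 fold change -0.49, SE 0.05, adjusted p = 0.00153). PATJ and MPP5 were lower in each siPSCA library than in any control, and MPP5 had a log2 fold change of -0.14 after removal of the trend (adjusted p = 0.149).

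The Scribble module of the basolateral side held the largest rise among the 43 genes. All 5 of its genes were called, 4 higher and 1 lower, where 50.7% of all genes were, and 3 of them after removal of the GC trend, where 40.0% of all genes were. SCRIB, its central scaffold, had 23.8, 22.0 and 10.9 FPKM in NC and 47.6, 46.5 and 42.1 in siPSCA. NC 3 was far below the other controls and every siPSCA library was above all of them (log2 fold change 1.29, SE 0.28, adjusted p = 0.0105). Without NC 3 the log2 fold change was 0.96 (adjusted p = 0.000321), after removal of the GC trend 0.62 (adjusted p = 0.0133), and the call held in all 6 fits without 1 library. LLGL1 and LLGL2, relatives of the fly gene lethal giant larvae and substrates of atypical protein kinase C, rose from 11.2 ± 2.98 to 18.9 ± 0.991 and from 18.0 ± 5.39 to 29.9 ± 0.342 FPKM. Their log2 fold changes were 0.74 (SE 0.19, adjusted p = 0.0181) and 0.74 (SE 0.21, adjusted p = 0.0286), and 0.35 (adjusted p = 0.0493) and 0.25 (adjusted p = 0.128) after removal of the trend. LLGL1 was not called without siPSCA 1 or siPSCA 2, and LLGL2 lost its call on leaving out siPSCA 1, siPSCA 2 or siPSCA 3. DLG5 had nearly equal controls, 11.1, 11.1 and 11.1 FPKM, and 15.8, 16.5 and 16.7 in siPSCA (log2 fold change 0.52, SE 0.05, adjusted p = 0.000918). It was called in all 6 fits without 1 library and after removal of the trend (0.33, adjusted p = 0.00346). DLG1, another scaffold of the discs large family, fell, with 10.8, 11.02 and 11.6 FPKM in NC and 7.22, 7.91 and 7.69 in siPSCA. The fall was larger than the spread in either group (log2 fold change -0.50, SE 0.06, adjusted p = 0.00155) and was -0.09 after removal of the trend (adjusted p = 0.185). AL450306.1, on the opposite strand, covers 17.1% of the DLG5 exons but was under 1 FPKM in both groups.

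Related genes were next compared within each library, since a ratio of FPKM does not depend on the scaling of the library. Of 12 pairs, chosen with earlier results known, 8 (66.7%) had ratios that did not overlap between the groups, a share near the 64.5% of single genes without overlap. The share over other pairs of genes was not computed. With 3 libraries against 3 the exact permutation p cannot fall below 0.1, which all 8 reached (2-sided, 0.15 after adjustment over the 12 pairs). The ratio of PKP2 to PKP3 was 0.243, 0.255 and 0.494 in NC and 0.107, 0.107 and 0.107 in siPSCA. PARD6A to PARD6B stood at 0.362, 0.410 and 0.317 in NC and 1.09, 0.867 and 0.753 in siPSCA, where PARD6A came close to its relative. DLG1 and DLG5 were at nearly equal FPKM in NC, with ratios of 0.976, 0.997 and 1.04, and DLG1 was at 0.458, 0.478 and 0.460 of DLG5 in siPSCA. The shift was thus from DLG1 towards DLG5 in every siPSCA library. PRKCI to PRKCZ was 3.62, 3.43 and 4.44 in NC and 1.93, 1.83 and 2.02 in siPSCA, so PRKCI remained the more abundant of these kinases in all 6 libraries. PPL to EVPL was 0.592, 0.617 and 0.776 in NC and 0.348, 0.362 and 0.394 in siPSCA. On the log2 scale the ratios of OCLN to MARVELD2, TJP1 to TJP3 and DSC2 to DSC3 were lower in siPSCA, with differences from NC of -0.62, -0.48 and -0.44. The pairs DSG2 to DSC2, LLGL1 to LLGL2, CLDN3 to CLDN4 and CGN to CGNL1 overlapped, with differences of -0.0024, 0.02, -0.13 and 0.03. Several of the 8 pairs join a gene of high and a gene of low GC content, and GC content moved with the fold changes. In an alternative added after the data were seen, the fold change of the second gene was subtracted from that of the first after removal of the GC trend, on the log2(FPKM + 1) scale. TJP1 to TJP3 then turned, from -0.45 on that scale to 0.32. PARD6A to PARD6B went from 1.06 to 0.30, PRKCI to PRKCZ from -0.86 to -0.19, PKP2 to PKP3 from -1.42 to -0.58 and DLG1 to DLG5 from -1.02 to -0.43. The differences of PPL to EVPL (-0.55), OCLN to MARVELD2 (-0.38) and DSC2 to DSC3 (-0.33) kept their sign and were also smaller. Of the 4 pairs that overlapped, CLDN3 to CLDN4 stood at -0.62, CGN to CGNL1 at -0.21, DSG2 to DSC2 at -0.17 and LLGL1 to LLGL2 at 0.10.

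**Figure D4:**
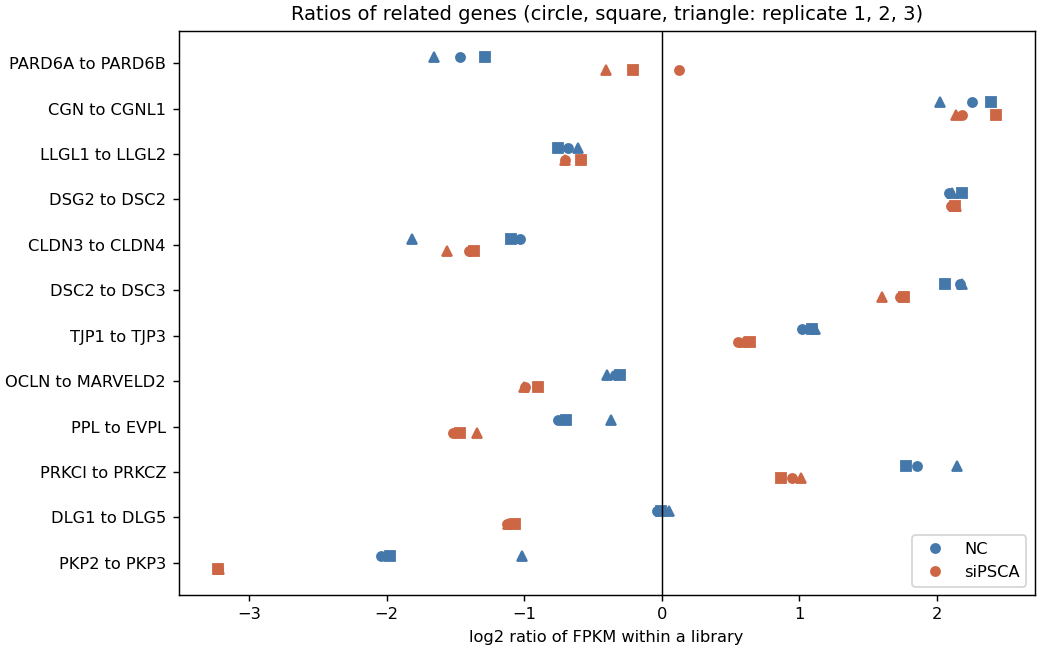
Log2 ratio of FPKM of 2 related genes within a library (x axis) for 12 pairs, in NC (blue) and siPSCA (red), with circle, square and triangle for replicates 1, 2 and 3. Colours separate for 8 pairs and overlap for DSG2 to DSC2, LLGL1 to LLGL2, CLDN3 to CLDN4 and CGN to CGNL1.

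Of 64 other junction and polarity genes 63 were in the table and 29 were tested, with 7 higher (24.1%) and 6 lower (20.7%), shares near those of all genes. The largest rises were those of STK11, the polarity kinase LKB1 (7.68 ± 1.67 to 13.0 ± 1.13 FPKM; log2 fold change 0.70, SE 0.15, adjusted p = 0.0106), of LSR, which recruits tricellulin (56.0 ± 14.3 to 88.2 ± 4.27; log2 fold change 0.68, SE 0.19, adjusted p = 0.0259), and of MARK2, the kinase PAR1b of the basolateral side (7.72 ± 0.435 to 12.3 ± 0.530; log2 fold change 0.61, SE 0.06, adjusted p = 0.00119). The largest falls were those of LIN7C, a scaffold that binds PALS1 (16.3 ± 0.742 to 10.01 ± 0.451 FPKM; log2 fold change -0.65, SE 0.06, adjusted p = 0.000886), of MPP5 and of MAGI3, a tight junction scaffold (4.25 ± 0.515 to 2.77 ± 0.323; log2 fold change -0.48, SE 0.10, adjusted p = 0.0102). After removal of the GC trend STK11 (0.09), LSR (0.03) and MPP5 (-0.14) were not called, and MARK2 (0.23), LIN7C (-0.34) and MAGI3 (-0.24) were. CDC42 was listed under 1 FPKM in every library, and other annotated genes share 57.1% of its exonic bases on the same strand, so its level is uncertain.

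Among 22 regulators of epithelial junctions 14 were tested, with 4 higher and 3 lower, so that 7 of the 14 were called, a share near the 50.7% of all genes. ESRP2 rose from 7.44 ± 0.884 to 12.8 ± 0.933 FPKM (log2 fold change 0.72, SE 0.10, adjusted p = 0.00239), while ESRP1, the gene of the other epithelial splicing regulator of this family, fell from 41.8 ± 3.16 to 33.7 ± 0.632 (log2 fold change -0.30, SE 0.06, adjusted p = 0.0101). CDX2, an intestinal homeobox factor, rose from 2.15 ± 0.426 to 4.07 ± 0.0961 (log2 fold change 0.70, SE 0.11, adjusted p = 0.00387), and SNAI1, a repressor of junction genes, from 4.54 ± 0.629 to 6.33 ± 0.486 (log2 fold change 0.41, SE 0.10, adjusted p = 0.0176). The transcription factor genes ELF3 (2.44 ± 0.386 to 1.27 ± 0.0436; log2 fold change -0.60, SE 0.10, adjusted p = 0.00549) and KLF5 (21.2 ± 0.426 to 15.5 ± 0.159; log2 fold change -0.42, SE 0.04, adjusted p = 0.00130) fell. All of these but SNAI1 (0.11, adjusted p = 0.177) were also called after removal of the GC trend, in the same direction. ZEB1, another repressor that binds the hexamer, lay under the FPKM minimum, with 141, 122 and 142 reads in NC and 79, 117 and 105 in siPSCA (adjusted p = 0.276). Of 10 proteases and partners of junction proteins 9 were tested and 55.6% called, near the 50.7% of all genes, with 3 higher, among them ST14, the gene of matriptase (log2 fold change 0.71, SE 0.14, adjusted p = 0.00892), and 2 lower, ADAM10 (log2 fold change -0.50, SE 0.06, adjusted p = 0.00177) and ADAM17 (log2 fold change -0.45, SE 0.07, adjusted p = 0.00368). With the GC trend removed 1 of the 9 was called higher and 3 lower (44.4%), where 40.0% of all genes were called. The genes called after that step are not named here, and ADAM10 and ADAM17 had a low GC content, of 38.3% to 38.5%.

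The sort markers CD44 and EPCAM were abundant in all libraries. CD44 fell from 82.6 ± 4.36 to 60.7 ± 1.51 FPKM (log2 fold change -0.44, SE 0.05, adjusted p = 0.00193), and EPCAM had 107 ± 14.4 and 94.97 ± 2.10 (adjusted p = 0.199). After removal of the GC trend 1 of these 2 genes was called, as lower, where 40.0% of all genes were called. Their median log2 fold change was -0.30 before that step and -0.20 after it. Of 10 colorectal epithelial markers 6 were tested, with KRT8, KRT18 and KRT19 all over 100 FPKM, whereas CDX1 was listed at 0 and VIL1, LGALS4 and CDH17 lay under 1 FPKM in every library. The summed FPKM of these 10 markers was 704 to 754 in NC and 784 to 816 in siPSCA. Of 9 fibroblast markers only COL1A1 was tested, and their sum was 3.52 to 5.77 FPKM in NC and 6.24 to 6.74 in siPSCA. The 9 immune markers summed to 0.236 to 0.497 FPKM in NC and 0.314 to 0.711 in siPSCA, and the 6 endothelial markers to 0.214 to 0.336 and 0.233 to 0.258. PTPRC was at or below 0.0454 FPKM in every library and PECAM1 at or below 0.153.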

How the data were processed

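RNA of HCT116SCs was sequenced in 3 NC and 3 siPSCA paired-end NEBNext Ultra libraries. The authors deposited FPKM values, reads per gene divided by gene length and a library total, for 58735 genes on GRCh38. The aligner, counter and strand setting are not given in the sources used here. All identifiers, starts and ends matched GENCODE release 29. FPKM times length gave whole reads for 100% of values (tolerance 0.1 reads), and the floor of 3 reads covers counting error only.

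Limma 3.58.1 in R 4.3.3 (lmFit, eBayes with trend) was fitted to log2(FPKM + 1), with group as the only term, for genes whose FPKM averaged 1 or more over the 6 libraries. The 2-sided p-values were adjusted by Benjamini and Hochberg over 13796 genes, or over 13792 with the GC trend removed. Every adjusted p of a gene comes from limma, and that of the pairs from the exact permutation test. Fold changes on this scale understate those of low genes. Genes under the minimum were taken from the same model with no minimum. The GC and length trend was a natural spline of 5 degrees of freedom each, fitted per library to deviations from the gene mean. Tests were run on simulated data.

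The 43 genes, 12 pairs and other lists were chosen with earlier results of these data known. Values in every library are given for the largest rise and fall called in each of 10 groups and for the 5 highest genes in NC. From the other junction genes and the regulators, the 3 largest rises and falls called are named. CLDN15, CLDN3, DLG5, CDC42, ZEB1, PHLPP2, OCLNP1 and the proteases named were added after their values were seen. One gene of the other lists is not reported here by name.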

Additional observations from a re-analysis of the deposited data

How the results depend on the processing

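Whether the replicate numbers pair the libraries is not known. Same-numbered libraries had correlations of their deviations of 0.0955, 0.0132 and 0.134. These were the highest values for NC 1 and NC 3, whereas NC 2 correlated best with siPSCA 1 (0.0363). The deviations also went with GC content, so these correlations cannot decide the question. With the replicate number as a replicate block, 6725 genes and 28 of the junction and polarity genes were called (14 higher, 14 lower), with DSP gained and CLDN2 lost. Without the FPKM minimum 9 of them were higher and 11 lower, and 5601 of all genes were called, among more genes tested. At an adjusted p under 0.01 4 were higher and 11 lower, and 3762 of all genes were called. With the GC and length trend removed 6 were higher, 8 lower and 3 called by p and fold; with the replicate block as well, 5, 7 and 3, and 4641 of all genes. With the trend removed, CLDN3 (-0.17, not called with or without the trend), TJP3 (-0.48), DSC2 (0.069), EVPL (-0.31) and PRKCZ (-0.093) changed sign, with and without the block. An alternative chosen after seeing the data was removal of the trend without NC 3. It left 11 higher, 11 lower and 1 by p and fold, and called 5956 of all genes. It turned CLDN3 (-0.40), TJP3 (-0.39), DSC2 (0.065), EVPL (-0.21), PRKCZ (-0.0047) and PKP4 (0.0086, not called). Of the 8 pair ratios without overlap, TJP1 to TJP3 changed sign with the trend removed. The median log2 fold change of the 38 genes, 0.07, was -0.053 with the trend removed and -0.048 over the fewer genes left by a minimum of 5 FPKM. The cause of these changes was not tested.

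When each library was left out in turn, genes called ranged from 4627 (without siPSCA 1) to 7425 (without NC 3), junction and polarity genes called higher from 6 (without siPSCA 1 or siPSCA 2) to 17, called lower from 11 to 13, and called by p and fold from 9 (without NC 3) to 18. Of the 28 called, 16 passed in all 6 of these fits, 5 higher and 11 lower. The share of all called genes that passed in all 6 was not computed, in either direction. Shares of all genes by p and fold were computed for the main fit only. TPM, median-of-ratios scaling and a pseudocount of 0.1 left the 15 higher and 13 lower. A minimum of 5 FPKM gave 11 and 12 among fewer genes tested. Limma-voom on the recovered reads called 7388 genes, with 16 higher and 13 lower. Depth limits what can be said of CLDN1, CLDN6, JAM3, PKP1 and ZEB1.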
